A study of Homo sapiens with 4 samples.

Results

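The numbered zinc finger (ZNF) genes of chromosome 19 were examined in a Micro-C comparison of SH-SY5Y cells. Micro-C maps chromatin contacts after cutting chromatin with micrococcal nuclease, and SH-SY5Y is an established human neuroblastoma line. The members were the protein-coding genes of chromosome 19 whose symbol is ZNF followed by a number, 250 of 20056 protein-coding genes, of which 4 are annotated as read-through or divergent loci. They overlap 259 bins of 50 kb (hg38), and 243 of these bins have a listed count of contacts within the bin, among 48992 such bins in all. The remaining 16 bins were not listed, so 6 genes have no value here: ZNF404, and 5 genes of the first cluster (ZNF66, ZNF85, ZNF100, ZNF676 and ZNF729). Of the 243 bins, 164 fall into 4 clusters, each called here by its first and last gene. They are ZNF101 to ZNF254 (chr19:19650001-24150000, 48 bins, 32 genes), ZNF565 to ZNF573 (chr19:36150001-37800000, 29 bins, 26 genes), ZNF575 to ZNF180 (chr19:43500001-44550000, 17 bins, 22 genes) and ZNF615 to ZNF446 (chr19:52000001-58500000, 70 bins, 96 genes). A further 79 bins lie outside them and hold 69 genes, of which ZNF615 is also counted in the last cluster.

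The knockdown cells carried a lentiviral shRNA against TDP-43 (gene TARDBP), a protein that binds RNA and DNA, and the other cells are labelled control. Per the labels' protocol, which is the same text for both groups, the hairpins (shTDP-43 and the negative control shNC) were expressed from a U6 vector. Puromycin at 2 µg/mL for 2 weeks selected the knockdown cells, which then stayed in 1 µg/mL. The sources used here do not say whether the control cells went through the same selection or whether either line is a clone. There were 2 TDP-43 knockdown libraries and 2 control libraries from equal numbers of cells, and their titles say that each was merged without saying from what. Separate cultures are not named in the labels, and the spread behind each p-value may therefore be technical. The listed counts summed to 115168160 and 142424414 contacts in the knockdown libraries and to 158400914 and 163147992 in the control libraries. A contact map measures no RNA, so neither the knockdown nor the cell line could be checked against expression.

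Most ZNF proteins of chromosome 19 are KRAB zinc finger proteins. They bind DNA, often within transposable elements, through tandem zinc fingers, and their KRAB domain recruits the corepressor TRIM28 (KAP1), which brings the histone methyltransferase SETDB1 and heterochromatin protein HP1. The genes arose by tandem duplication, and in many cell types the clusters are themselves covered by the silencing mark H3K9me3 over the zinc finger exons. Near copies share sequence, and the sources used here do not say how contacts with an ambiguous position were treated.

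The promoters of 4 genes are shown, ZNF723, ZNF254 and ZNF91 of the ZNF101 to ZNF254 cluster and ZNF135 of the ZNF615 to ZNF446 cluster. Promoters were not aligned with each other within any other cluster. ZNF723 had the largest fall of contacts within its bin, ZNF254 is a gene of the same cluster whose bin rose, ZNF91 is a repressor of retrotransposons from that cluster, and ZNF135 had the smallest adjusted p of all ZNF bins. The sequences are those of RefSeq (GRCh38.p14), from 250 bases before to 50 bases after an annotated start, 5′ to 3′ on the gene's strand, with every CG dinucleotide in capitals. ZNF723 is on the plus strand at chr19:22832041-22832340, ZNF254 on the plus strand at chr19:24086937-24087236, ZNF91 on the minus strand at chr19:23395422-23395721 and ZNF135 on the plus strand at chr19:58058989-58059288.
ZNF723: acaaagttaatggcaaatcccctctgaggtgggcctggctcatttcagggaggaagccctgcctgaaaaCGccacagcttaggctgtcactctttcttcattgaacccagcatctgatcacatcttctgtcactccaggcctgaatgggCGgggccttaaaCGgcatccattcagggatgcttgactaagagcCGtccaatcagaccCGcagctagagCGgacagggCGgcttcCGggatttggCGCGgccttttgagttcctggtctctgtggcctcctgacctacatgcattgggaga
ZNF254: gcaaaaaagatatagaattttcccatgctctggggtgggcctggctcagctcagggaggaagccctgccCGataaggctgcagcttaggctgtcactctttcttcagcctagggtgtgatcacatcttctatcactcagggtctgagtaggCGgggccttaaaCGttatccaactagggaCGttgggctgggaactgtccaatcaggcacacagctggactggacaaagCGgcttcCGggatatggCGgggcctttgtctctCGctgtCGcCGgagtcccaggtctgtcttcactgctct
ZNF91: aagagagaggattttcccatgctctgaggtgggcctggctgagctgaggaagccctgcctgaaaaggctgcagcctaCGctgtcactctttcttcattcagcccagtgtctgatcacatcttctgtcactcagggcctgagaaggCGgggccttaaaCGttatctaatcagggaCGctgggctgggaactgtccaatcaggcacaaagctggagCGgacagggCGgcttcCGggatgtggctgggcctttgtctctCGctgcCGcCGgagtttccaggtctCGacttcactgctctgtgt
ZNF135: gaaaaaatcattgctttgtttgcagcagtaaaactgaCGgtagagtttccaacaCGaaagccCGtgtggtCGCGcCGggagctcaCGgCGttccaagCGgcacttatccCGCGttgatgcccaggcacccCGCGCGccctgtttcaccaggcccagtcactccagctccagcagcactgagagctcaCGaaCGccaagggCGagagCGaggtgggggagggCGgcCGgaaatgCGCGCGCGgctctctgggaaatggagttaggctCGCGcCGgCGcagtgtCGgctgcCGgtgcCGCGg

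Aligned end to end, the ZNF254 and ZNF91 promoters were identical at 84.2% of aligned columns, ZNF723 and ZNF91 at 72.8%, and ZNF723 and ZNF254 at 71.1%. The ZNF135 promoter was identical to these at 45.7% to 47.7%. It holds 32 CG dinucleotides, against 10 in ZNF723, 10 in ZNF254 and 11 in ZNF91. The same contrast held across clusters: the 30 promoters listed for the ZNF101 to ZNF254 cluster held a median of 10 CG dinucleotides (8 to 18), and the 103 of the ZNF615 to ZNF446 cluster a median of 23 (3 to 42). The median was 21 for the 45 promoters of the ZNF565 to ZNF573 cluster, 18 for the 23 of the ZNF575 to ZNF180 cluster and 21 over all 22199 promoters of protein-coding genes. TDP-43 binds UG repeats in RNA, so the letters TGTGTG were searched on both strands, where they cannot overlap a CG. They were found in 57 of the 271 promoters of chromosome 19 ZNF genes (21.0%), in 11.6% of the 292 promoters of ZNF genes on other chromosomes and in 15.4% of all promoters of this length. Of the 4 promoters shown, ZNF254 holds a match, which is a description of these letters and not a binding site.

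The comparison asked where contacts differed once TDP-43 had been depleted, and the first readout was the number of contacts with both ends in the same 50 kb bin. Levels are given as CPM, contacts scaled to the library total after TMM scaling (a factor per library that sets most bins level), and the test was edgeR's quasi-likelihood test with Benjamini-Hochberg adjustment over all 89239 listed pairs and a threshold of 0.05. Contacts fell in the TDP-43 knockdown within 51 of the 243 ZNF bins (21.0%) and rose within 3 (1.23%). Over all 48992 bins 14.3% fell and 7.4% rose, 21.7% in all. The median log2 fold change of the ZNF bins was -0.09 (range -0.87 to 0.55), against 0.02 over all bins, and 72.8% of them lay below 0. By library, the median level of a ZNF bin was 9.81 and 9.91 CPM in the knockdown libraries and 10.5 and 10.4 CPM in the control libraries. The knockdown libraries lay below both control libraries in 111 ZNF bins (45.7%, against 28.5% of all bins) and above both in 26 (10.7%, against 31.4%). The count of 54 bins past the threshold was 26 without knockdown library 1 and 34 without knockdown library 2.

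The fold change followed the contact level across the map, so a second scaling removed that trend with a loess curve for each library. Its fold changes were within 0.00309 (log2) of those in the authors' deposited table. With the trend removed, 31 ZNF bins fell (12.8%) and 6 rose (2.47%), where 5.11% of all bins fell and 7.9% rose (13.0% in either direction). Among all bins in the authors' deposited table, 5.12% fell and 8.0% rose, and 37 ZNF bins passed there as well. Of the bins that fell, 28 were the same under both scalings, and 2 of those that rose. Rising bins made up 5.56% of the ZNF bins past the threshold under TMM scaling and 16.2% with the trend removed, and over all bins these shares were 34.2% and 60.7%. The median log2 fold change of the ZNF bins was -0.07 with the trend removed, against 0.03 over all bins. Across the 243 bins the correlation of the log2 control level with the log2 fold change was -0.39 under TMM scaling and 0.08 with the trend removed, a description of bins that share the same libraries and depth.

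**Figure D1:**
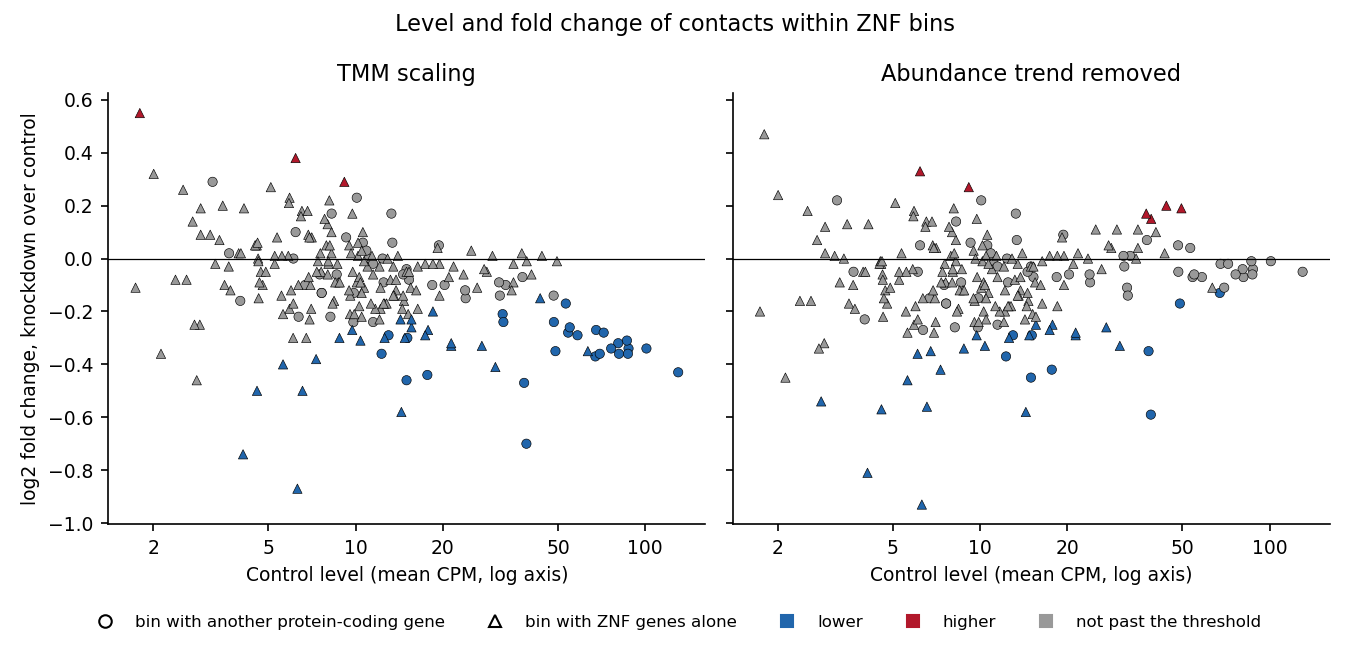
Each symbol is a chromosome 19 ZNF bin, placed by its mean control level in CPM (log axis) and its log2 fold change of knockdown over control, under TMM scaling on the left and with the abundance trend removed on the right. Triangles are bins with ZNF genes alone, circles are bins with another protein-coding gene, and colour marks bins past the threshold of 0.05. The bright bins at 30 CPM or more lie mostly below 0 on the left and near 0 on the right, while the low points among dimmer bins stay in place.

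The bins were also split at a control level of 30 CPM, a limit set after the data had been seen. Among the 38 bins at 30 CPM or more, 25 fell under TMM scaling (65.8%) and 0 rose, and of all bins at this level 67.2% fell, close to the share of the ZNF bins. With the trend removed, 5 of the 38 fell (13.2%) and 4 rose (10.5%), beside 16.7% and 14.9% of all bins at this level. All 4 risers are bins of ZNF536. The 205 dimmer bins, which hold most of the clustered genes, gave the same count of falls under both scalings, 26 (12.7%), 23 of them in both, with 3 rising under TMM scaling (1.46%) and 2 with the trend removed (0.976%). Of all bins under 30 CPM, 3.54% fell and 8.85% rose under TMM scaling, and 2.76% fell and 6.47% rose with the trend removed. The median level of these dimmer ZNF bins was 8.65 and 8.83 CPM in the knockdown libraries against 8.89 and 9.01 CPM in the control libraries, while that of all dimmer bins was 5.86 and 5.87 CPM in the knockdown libraries against 5.56 and 5.34 CPM in the control libraries. No test was made of the difference between ZNF bins and the rest.

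These counts differed with what else a bin held, and the bins compared here also differed in contact level. The 177 bins with no other protein-coding gene, at a median of 9.15 CPM in control, had 24 that fell (13.6%) and 3 that rose (1.69%) under TMM scaling. With the trend removed 22 fell (12.4%) and 6 rose (3.39%), and 19 of the 24 fell under both. Over all bins 14.3% fell and 7.4% rose under TMM scaling, and 5.11% and 7.9% with the trend removed. The 66 bins that also hold another protein-coding gene, at a median of 16.5 CPM in control, had 27 that fell (40.9%) and 0 that rose under TMM scaling. With the trend removed 9 fell (13.6%), all of them among these 27. Bins with a ZNF transcription start (170) had 38 that fell (22.4%) and 2 that rose (1.18%) under TMM scaling, and those without (73) had 13 (17.8%) and 1 (1.37%). The 804 bins of chromosome 19 with no ZNF gene, brighter at a median of 48.5 CPM in control than the ZNF bins at 10.4 CPM, had 449 that fell (55.8%) and 47 that rose (5.85%). The same bins had, once the trend was removed, 116 that fell (14.4%) and 50 that rose (6.22%), with a median log2 fold change of -0.01. The 478 bins of ZNF genes on other chromosomes had 136 that fell (28.5%) and 14 that rose under TMM scaling, and 48 (10.0%) and 16 with the trend removed.

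**Figure D2:**
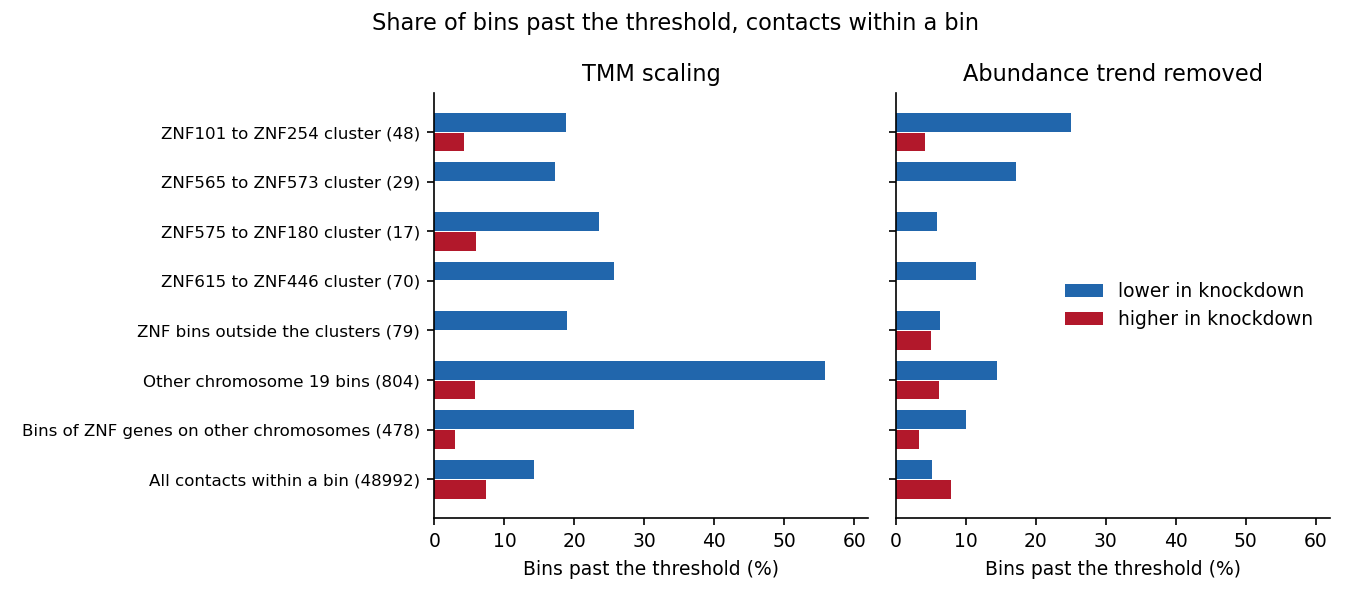
Bars give the percentage of bins past the threshold, lower (blue) and higher (red) in the knockdown, with the number of bins in brackets, under TMM scaling on the left and with the abundance trend removed on the right. The share that fell in the ZNF101 to ZNF254 cluster was 18.8% and 25.0%, while that of the other chromosome 19 bins was 55.8% and 14.4%.

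Because a share of contacts within a chromosome needs no scaling between libraries, the part of chromosome 19 within-bin contacts that lies in ZNF bins was also taken. It was 10.31% and 10.23% in the knockdown libraries, against 9.735% and 9.486% in the control libraries, a difference of 0.659 percentage points with no overlap between the groups. An exact two-sided permutation test of 2 against 2 libraries gave p = 0.333, the smallest p this design allows. The ZNF bins inside the clusters took 5.668% and 5.565% in the knockdown libraries and 5.406% and 5.266% in the control libraries. Chromosome 19 as a whole took 4.512% and 4.546% of all within-bin contacts in the knockdown libraries and 4.843% and 4.969% in the control libraries. Taken over all within-bin contacts, the share of the ZNF bins was 0.4651% in each knockdown library, against 0.4715% and 0.4713% in the control libraries, so its direction depends on the denominator.

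The ZNF101 to ZNF254 cluster holds mostly large primate-expanded KRAB zinc finger genes, with 45 of its 48 bins holding a single ZNF gene, and it was dim, at a median of 6.25 CPM in control. Contacts fell within 9 of its 48 bins (18.8%, against 14.3% of all bins) and rose within 2 (4.17%, against 7.4%). The median log2 fold change of the cluster was -0.10. Trend removal gave 12 that fell (25.0%, against 5.11% of all bins), including the 9, and 2 that rose (4.17%, against 7.9%). The count past the threshold in either direction was 11, and 4 without knockdown library 1.

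The largest fall of all ZNF bins was at ZNF723, in the bin at chr19:22800001-22850000, which had 3.54 and 3.38 CPM in the knockdown libraries, against 6.48 and 6.12 CPM in the control libraries. The groups did not overlap, and the log2 fold change was -0.87 (edgeR adjusted p = 6.51e-08, SE 0.13), or -0.93 with the trend removed (adjusted p = 4.38e-08). The adjoining bin of ZNF99 at chr19:22750001-22800000 fell with it, at 2.16 and 2.74 CPM in the knockdown libraries against 4.01 and 4.17 CPM in the control libraries (log2 fold change -0.74, SE 0.17, edgeR adjusted p = 0.000373). The ZNF99 bin did not pass without knockdown library 1 (adjusted p = 0.102). Closer to the short-arm end, ZNF257 (chr19:22050001-22100000) had 3.12 and 3.33 CPM in the knockdown libraries and 4.49 and 4.65 CPM in the control libraries. Its log2 fold change was -0.50 (edgeR adjusted p = 0.0107, SE 0.15), and it did not pass without knockdown library 1 (adjusted p = 0.189) or 2 (adjusted p = 0.0831). At the start of the cluster, a run of 3 adjoining bins with ZNF101, ZNF14 and ZNF506 (chr19:19650001-19800000) had log2 fold changes of -0.41 to -0.32, and all 3 bins remained past the threshold with the trend removed. The last of them, called the ZNF506 bin here, holds only the smaller part of that gene. The rest of ZNF506 lies in the next bin, which did not pass (log2 fold change 0.05, edgeR adjusted p = 0.82). The ZNF506 bin did not pass without knockdown library 1 (adjusted p = 0.0905).

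Against these falls stood the 2 rises of the cluster. The bin at chr19:20200001-20250000 had 8.59 and 7.54 CPM in the knockdown libraries, against 6.01 and 6.40 CPM in the control libraries, with no overlap. Its log2 fold change was 0.38 (edgeR adjusted p = 0.00878, SE 0.11), and ZNF486 (chr19:20167214-20200488) reaches into it only with an edge of the gene. It did not pass without knockdown library 1 (adjusted p = 0.326). Within ZNF254, contacts of the bin at chr19:24050001-24100000 stood at 11.2 and 11.1 CPM in the knockdown libraries and 9.20 and 9.10 CPM in the control libraries (log2 fold change 0.29, SE 0.09, edgeR adjusted p = 0.0196). It did not pass with DESeq2 (adjusted p = 0.0608) or without knockdown library 1 (adjusted p = 0.207) or 2 (adjusted p = 0.151). Neither of these 2 bins had a neighbouring ZNF bin that passed. The bin of ZNF430 and ZNF714, 1 of 3 bins of the cluster with 2 ZNF genes, did not pass (7.30 and 7.81 CPM in the knockdown libraries, 8.85 and 8.00 CPM in the control libraries, log2 fold change -0.16, edgeR adjusted p = 0.329). 

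**Figure D3:**
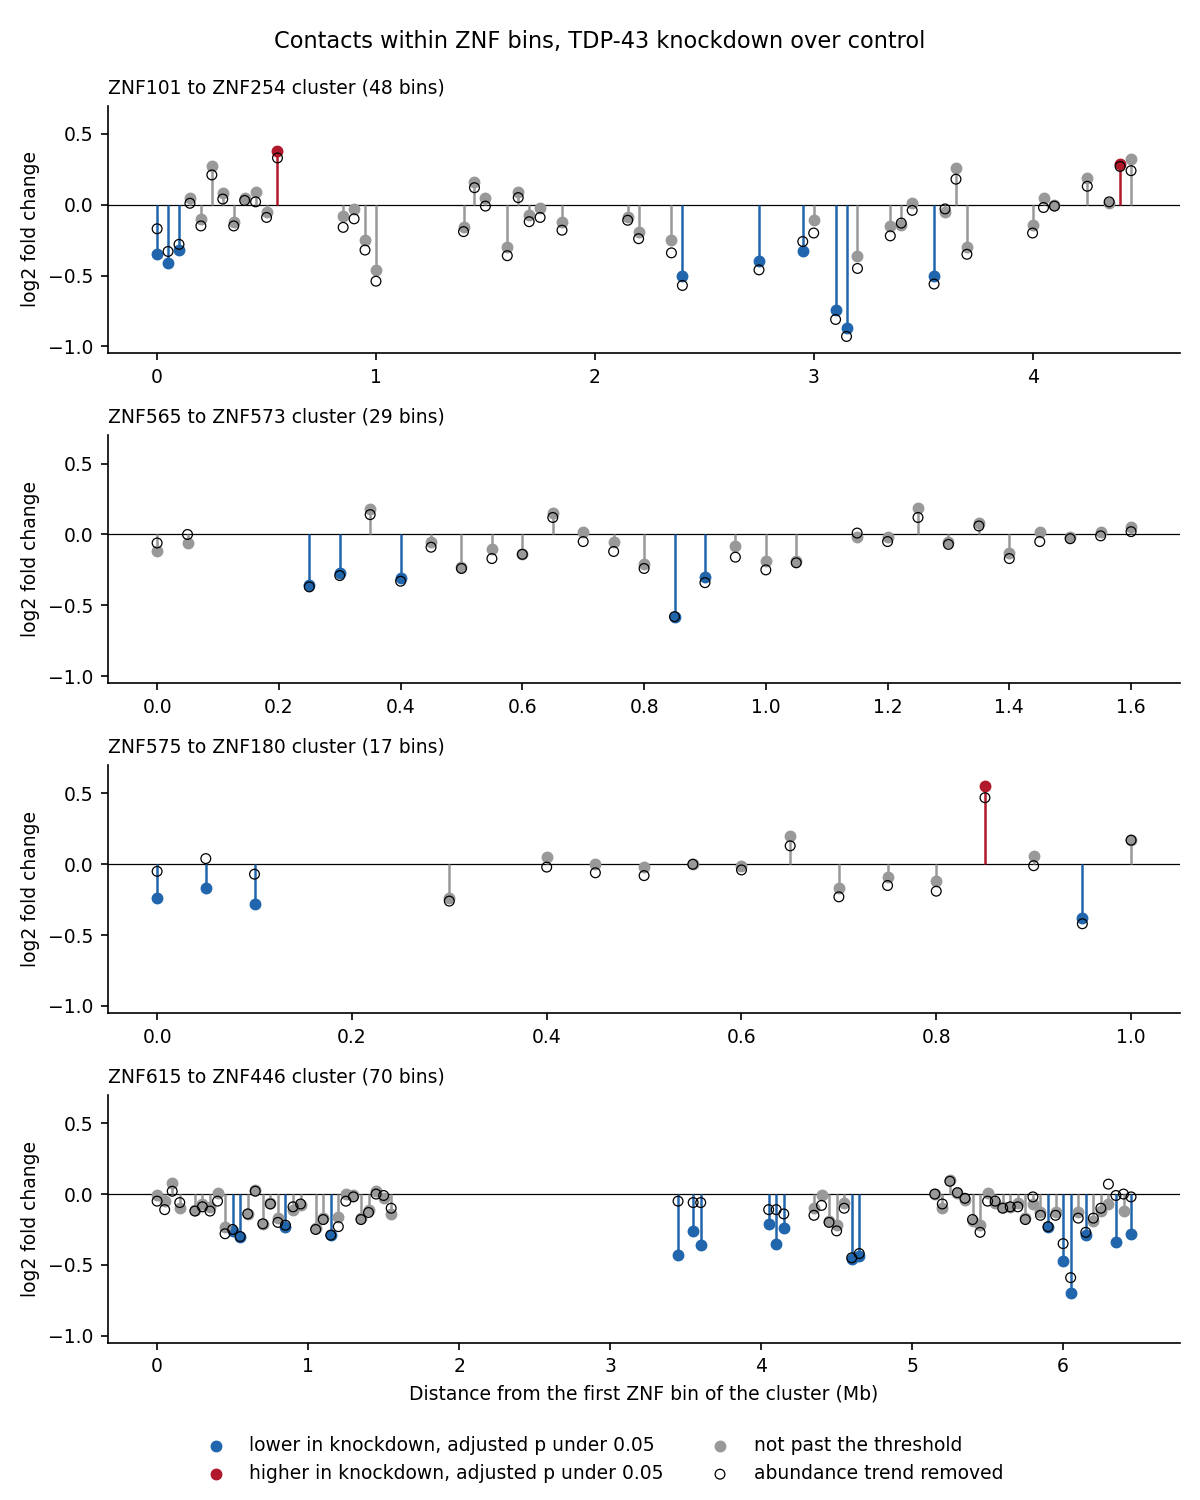
Each stem is a 50 kb ZNF bin, at its distance in Mb from the first ZNF bin of its cluster, with the log2 fold change of within-bin contacts (knockdown over control) as its height. Filled points are TMM values coloured by call, and open circles are values with the abundance trend removed. The deepest pair of adjoining stems in the top panel is ZNF99 and ZNF723 (-0.74 and -0.87), and in the bottom panel ZNF606 and ZNF135 (-0.47 and -0.70). ZNF606 enters its bin of this pair only with an edge of the gene, and ZSCAN1 reaches into both bins.

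In the ZNF565 to ZNF573 cluster, contacts fell within 5 of 29 bins (17.2%) and rose within 0, with both scalings giving the same count. For all bins the shares that fell and rose were 14.3% and 7.4% under TMM scaling, and 5.11% and 7.9% with the trend removed. The median log2 fold change of the cluster was -0.06 under TMM scaling. The count was 1 without knockdown library 1 and 2 without knockdown library 2. The 5 bins belong to 3 ZNF genes. ZNF420, a KRAB zinc finger protein known as a negative regulator of p53 (APAK), had the largest fall, in the bin at chr19:37000001-37050000, with 9.42 and 9.85 CPM in the knockdown libraries against 13.2 and 15.6 CPM in the control libraries. The groups did not overlap and the log2 fold change was -0.58 (edgeR adjusted p = 2.5e-08, SE 0.09), the same with the trend removed. Its next bin fell too (log2 fold change -0.30, edgeR adjusted p = 0.0300), but did not pass without control library 2 (adjusted p = 0.0699), knockdown library 1 (0.219) or knockdown library 2 (0.198). ZNF566 reaches only with an edge of the gene into a bin shared with the zinc finger gene ZFP82 (chr19:36400001-36450000). That bin had 9.30 and 9.81 CPM in the knockdown libraries and 12.3 CPM in each control library, a log2 fold change of -0.36 (edgeR adjusted p = 0.00127, SE 0.09). ZNF529 had 8.17 and 8.58 CPM in the knockdown libraries and 10.4 CPM in each control library (log2 fold change -0.31, SE 0.10, edgeR adjusted p = 0.0149). Without knockdown library 1 neither passed (adjusted p = 0.0945 for ZNF566 and 0.233 for ZNF529), and without knockdown library 2 ZNF529 did not (adjusted p = 0.0892). The bin that holds part of ZNF529 with ZNF382 and ZNF461, 1 of 2 bins of the cluster with 3 ZNF genes, did not pass (7.17 and 7.04 CPM in the knockdown libraries, 7.55 and 7.15 CPM in the control libraries, edgeR adjusted p = 0.814).

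In the small ZNF575 to ZNF180 cluster, contacts fell within 4 of 17 bins (23.5%) and rose within 1 (5.88%) under TMM scaling. After trend removal 1 fell (5.88%) and 0 rose. The shares over all bins were 14.3% and 7.4% under TMM scaling, and 5.11% and 7.9% with the trend removed. This cluster held 2 kinds of bin. Its first 3 bins, with ZNF575, ZNF576 and ZNF428 among genes of other families such as the DNA repair gene XRCC1, were bright, and all 3 fell under TMM scaling. The bin of ZNF576 and ZNF428 (chr19:43600001-43650000) had 44.8 and 44.6 CPM in the knockdown libraries against 52.1 and 56.2 CPM in the control libraries (log2 fold change -0.28, SE 0.06, edgeR adjusted p = 4.12e-05), and that of ZNF575 41.0 and 41.2 CPM in the knockdown libraries against 46.4 and 50.5 CPM in the control libraries (log2 fold change -0.24, SE 0.06, edgeR adjusted p = 0.000677). With the trend removed their log2 fold changes were -0.07 and -0.05 (edgeR adjusted p = 0.328 and 0.535), and 0 of the 3 bins passed. Under TMM scaling the ZNF575 bin did not pass without knockdown library 1 (adjusted p = 0.0937) or 2 (adjusted p = 0.0686).

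Of the 14 dim bins of that cluster, 1 fell and 1 rose. ZNF180 (chr19:44450001-44500000) had 5.16 and 6.09 CPM in the knockdown libraries against 7.88 and 6.75 CPM in the control libraries, with no overlap (log2 fold change -0.38, SE 0.12, edgeR adjusted p = 0.0146), and it did not pass without control library 1 (adjusted p = 0.139) or knockdown library 1 (adjusted p = 0.373). The bin of ZNF112 and ZNF285 had 2.35 and 2.93 CPM in the knockdown libraries and 2.07 and 1.53 CPM in the control libraries. That was the largest increase of all ZNF bins (log2 fold change 0.55, SE 0.20), yet the call sat at the threshold (edgeR adjusted p = 0.0471) and was lost with the trend removed (adjusted p = 0.117). The same bin also failed the test with DESeq2 (adjusted p = 0.118) and without control library 2 (0.29), knockdown library 1 (0.106) or knockdown library 2 (0.49). The bin of ZNF223, ZNF284 and ZNF224, 1 of 2 bins of the cluster with 3 ZNF genes, did not pass (edgeR adjusted p = 0.991), at 13.2 and 12.5 CPM in the knockdown libraries and 13.0 and 12.8 CPM in the control libraries. In all, 5 bins of the cluster passed, against 1 with the trend removed, 1 without knockdown library 1 and 2 without knockdown library 2.

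The ZNF615 to ZNF446 cluster, which lies near the end of the long arm, had the most genes. Contacts fell within 18 of its 70 bins (25.7%) and rose within 0, the median log2 fold change was -0.13, and 88.6% of its bins lay below 0. After trend removal 8 bins fell (11.4%), the median was -0.11 and 90.0% of bins lay below 0. The count was 11 without knockdown library 1 and 10 without knockdown library 2. Its bins form 4 blocks separated by stretches with no ZNF gene. The block from ZNF615 to ZNF331 had 4 of 30 bins that fell (13.3%) and that from ZNF628 to ZNF580 had 3 of 3. The block from ZNF787 to ZNF835 had 5 of 10 (50.0%) and that from ZNF264 to ZNF446 had 6 of 27 (22.2%). With the trend removed the counts were 3 (10.0%), 0, 2 (20.0%) and 3 (11.1%), in this order. Of all bins 14.3% fell under TMM scaling and 5.11% with the trend removed. The cluster had 12 bins at 30 CPM or more in control, of which 10 fell under TMM scaling (83.3%) and 2 with the trend removed (16.7%). The shares of all bins at this level were 67.2% and 16.7%. Control levels reached 63.4 CPM in the ZNF787 to ZNF835 block and 101 CPM in the ZNF264 to ZNF446 block. Brightest by its median was the block from ZNF628 to ZNF580, at 87.2 CPM in control against 11.5 to 14.5 CPM in the others. Its bin with the most ZNF genes of the whole set (ZNF524, ZNF865, ZNF784, ZNF581 and ZNF580, chr19:55600001-55650000) had 66.4 and 69.4 CPM in the knockdown libraries against 86.2 and 88.3 CPM in the control libraries. The log2 fold change was -0.36 (edgeR adjusted p = 2.82e-08, SE 0.05), but -0.06 with the trend removed (adjusted p = 0.3).

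In this cluster contacts fell most within the bin of ZNF135 (chr19:58050001-58100000), shared with the SCAN-domain zinc finger genes ZSCAN1 and ZSCAN18. It had 23.2 and 24.6 CPM in the knockdown libraries, against 36.1 and 41.7 CPM in the control libraries, or 23.9 ± 1.05 CPM in the knockdown and 38.9 ± 3.98 CPM in the control (SD, n = 2 each). The gap between the groups was wider than the spread within either, and the log2 fold change was -0.70 (edgeR adjusted p = 1.39e-19, SE 0.06) and -0.59 with the trend removed (adjusted p = 5.09e-17). The adjoining bin of ZSCAN1, which ZNF606 enters only with an edge of the gene, had 27.2 and 27.8 CPM in the knockdown libraries against 37.6 and 38.8 CPM in the control libraries (log2 fold change -0.47, SE 0.06, edgeR adjusted p = 1.31e-11). ZNF71, known as a zinc finger protein induced by tumour necrosis factor in endothelium, had 11.0 and 10.9 CPM in the knockdown libraries and 14.7 and 15.3 CPM in the control libraries (log2 fold change -0.46, SE 0.08, edgeR adjusted p = 4.84e-06). ZNF835 in the next bin fell by a like amount (log2 fold change -0.44). These 4 bins also passed with the trend removed. SMIM17 reaches into the bins of both ZNF71 and ZNF835. An edge of ZNF71 lies in the bin before, which did not pass (log2 fold change -0.06, edgeR adjusted p = 0.751). A bin chosen after its values were seen is that of ZNF329 and ZNF274, since ZNF274 is the protein known to bind the 3′ ends of other zinc finger genes and recruit SETDB1 there. Its level was 15.5 and 13.0 CPM in the knockdown libraries and 16.4 and 18.4 CPM in the control libraries (log2 fold change -0.29, edgeR adjusted p = 0.00336), and it passed with the trend removed (adjusted p = 0.0126) but not without control library 2 (0.0785) or knockdown library 2 (0.372). The other bin of ZNF274, shared with ZNF544, did not pass under either scaling (log2 fold change -0.19, edgeR adjusted p = 0.0793, and 0.151 with the trend removed).

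**Figure D4:**
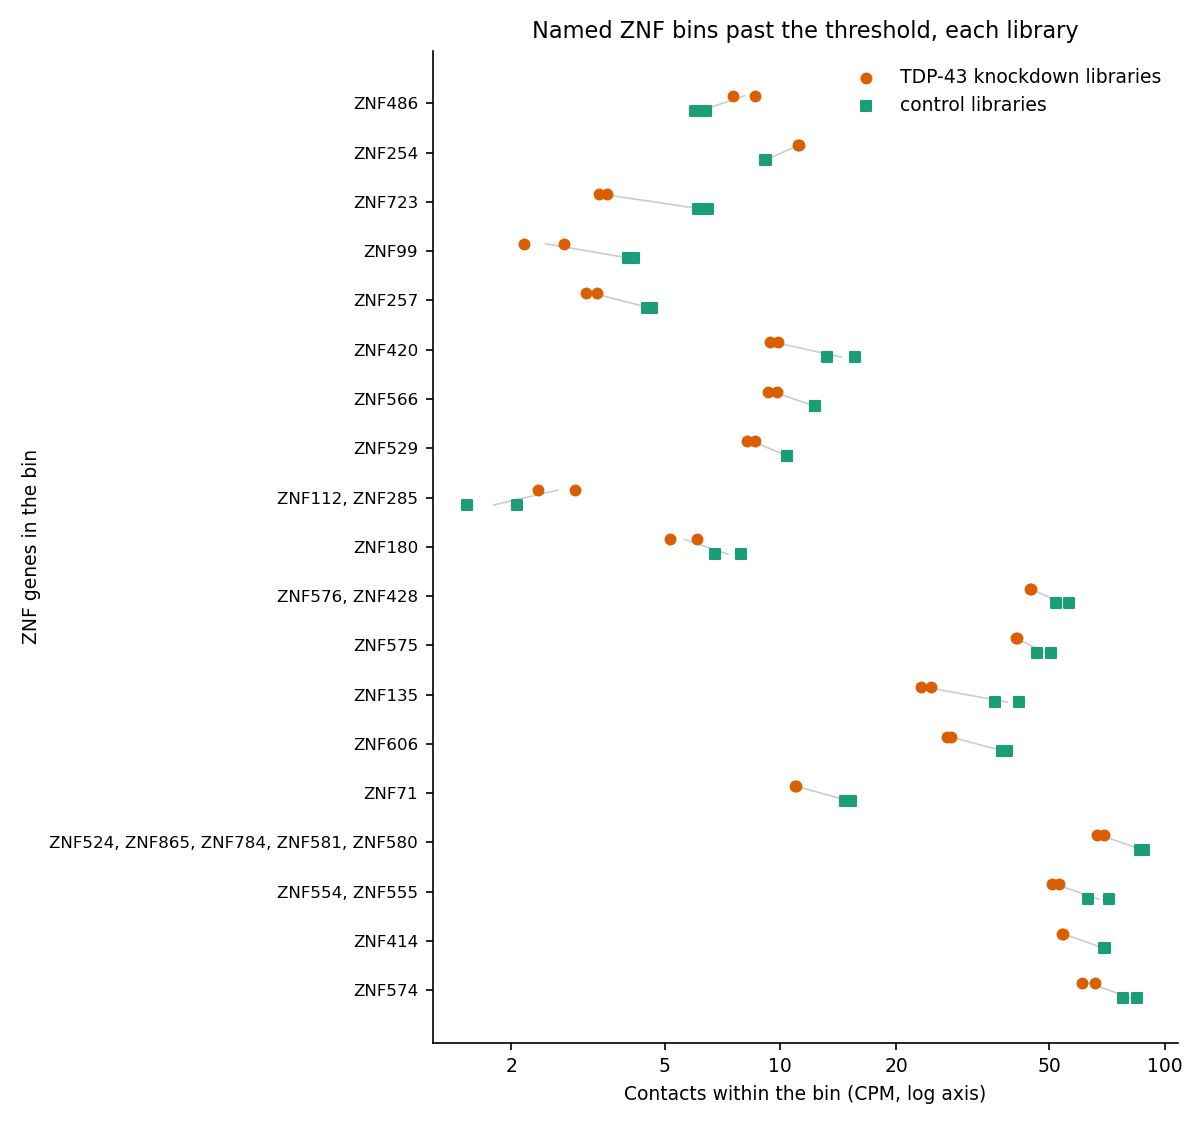
Each row is a named ZNF bin past the threshold, with the 2 knockdown libraries as circles and the 2 control libraries as squares on a log axis of CPM, and a line joining the group means. The groups do not overlap in any of the 19 bins, and the naming rule required this of all but the bin of ZNF524 and its neighbours. ZNF486, ZNF254 and the bin of ZNF112 and ZNF285 lie higher in the knockdown and the other 16 lower.

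Outside the clusters, contacts fell within 15 of 79 bins and rose within 0, and with the trend removed 5 fell and 4 rose. The 3 largest falls were in bright bins shared with other genes. ZNF554 and ZNF555, in a bin with the peptidase gene THOP1 (chr19:2800001-2850000), had 50.9 and 53.0 CPM in the knockdown libraries against 63.0 and 71.6 CPM in the control libraries (log2 fold change -0.37, SE 0.06, edgeR adjusted p = 1.98e-08), and this call remained with the trend removed (-0.13, adjusted p = 0.0286). ZNF414 had 54.0 and 54.4 CPM in the knockdown libraries and 69.9 and 69.5 CPM in the control libraries (log2 fold change -0.36, SE 0.05, edgeR adjusted p = 2.67e-08). ZNF574 had 60.9 and 65.8 CPM in the knockdown libraries and 77.7 and 84.6 CPM in the control libraries (log2 fold change -0.36, SE 0.06, edgeR adjusted p = 5.13e-08). Neither ZNF414 nor ZNF574 passed with the trend removed (adjusted p = 0.0573 and 0.219).

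ZNF536 stood apart from the other members in structure, as a single long gene (chr19:30225592-30713586) over 11 bins, and it encodes a repressor of neuronal differentiation rather than a clustered KRAB protein. Its 11 bins had a median log2 fold change of -0.01 under TMM scaling, with 1 that fell (chr19:30650001-30700000, log2 fold change -0.15, edgeR adjusted p = 0.0459) and 0 that rose. Trend removal gave a median of 0.11, with 4 bins that rose (36.4%) and 0 that fell. The median control level of the 11 bins was 37.5 CPM. Of all bins at 30 CPM or more, 14.9% rose and 16.7% fell with the trend removed, and 0.242% and 67.2% under TMM scaling. The sign of the median and the calls at ZNF536 thus changed with the scaling, and the bin that fell did not pass with DESeq2 (adjusted p = 0.0606) or without knockdown library 1 (0.495) or 2 (0.203). Without its 11 bins, 53 ZNF bins passed the threshold under TMM scaling.

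Bins that fell adjoined each other in part. The 51 bins formed 36 runs, of which 12 held 2 or 3 adjoining bins and 27 bins in all, and with the trend removed the 31 bins formed 22 runs, 8 of them with 2 or 3 bins. The bins that rose stood singly under both scalings. Over 192 adjoining pairs of ZNF bins the log2 fold changes correlated with r = 0.42 under TMM scaling and 0.47 with the trend removed, beside 0.45 and 0.30 over 45518 adjoining pairs of all bins, where neighbours share libraries and contact level. The number of ZNF genes in a bin had a correlation of 0.0 with the log2 fold change, and the number of other genes one of -0.23 under TMM scaling (243 bins). Closest to the threshold inside it were a ZNF566 bin (log2 fold change -0.27, edgeR adjusted p = 0.0468) and that of ZNF112 and ZNF285. Just outside lay ZNF160 (-0.24, adjusted p = 0.0504) and ZNF611 (-0.21, adjusted p = 0.0514).

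A second readout, contacts between 2 different ZNF bins, was sparse. The table lists 99 such pairs, at 50 to 150 kb, and 78 of the 192 adjoining pairs of ZNF bins are among them. Contacts fell for 4 pairs (4.04%) and rose for 5 (5.05%), beside 5.84% and 3.76% of all 40247 pairs of different bins, 9.6% in all. The median log2 fold change was 0.09, against 0.06 over all pairs at these distances and -0.04 over those of chromosome 19. With the trend removed 4 pairs fell and 2 rose, beside 6.98% and 1.44% of all pairs, and the median was 0.01. The count of 9 pairs was 1 without knockdown library 1 and 1 without knockdown library 2.

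The largest fall between bins joined ZNF606 to ZNF135, in adjoining bins that had both fallen themselves. ZNF606 enters its bin of the pair only with an edge of the gene, and ZSCAN1 reaches into both bins. The bin with most of ZNF606 did not pass (log2 fold change -0.13, edgeR adjusted p = 0.375). The pair had 3.40 and 4.20 CPM in the knockdown libraries against 6.14 and 6.60 CPM in the control libraries (log2 fold change -0.74, SE 0.13, edgeR adjusted p = 3.01e-06). ZNF14 to the bin with the smaller part of ZNF506 followed, at 4.80 and 4.66 CPM in the knockdown libraries and 6.09 and 6.30 CPM in the control libraries (log2 fold change -0.39, SE 0.13, edgeR adjusted p = 0.0197). ZNF628 to the bin of ZNF524 and its neighbours, 150 kb apart, had 4.43 and 4.22 CPM in the knockdown libraries and 5.36 and 5.88 CPM in the control libraries (log2 fold change -0.38, edgeR adjusted p = 0.0346). The groups overlapped in none of these 3, and all 3 passed with the trend removed. ZNF606 to ZNF135 passed without each library in turn. The ZNF14 pair did not pass without control library 2 (adjusted p = 0.0592), knockdown library 1 (0.149) or knockdown library 2 (0.192). The ZNF628 pair was lost by the same omissions (adjusted p = 0.15, 0.18 and 0.266) and with DESeq2 (0.0557).

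Among the rises, the largest lay within ZNF254, between its first bin and its second, whose own contacts rose as well. This pair had 2.40 and 2.52 CPM in the knockdown libraries and 1.31 and 1.54 CPM in the control libraries (log2 fold change 0.79, SE 0.22, edgeR adjusted p = 0.00435). A pair of ZNF536 bins 100 kb apart had 2.64 and 2.32 CPM in the knockdown libraries and 1.57 and 1.62 CPM in the control libraries (log2 fold change 0.64, SE 0.21, edgeR adjusted p = 0.0237). The control levels of the ZNF254 and ZNF536 pairs were low beside the median of 2.03 CPM over all ZNF pairs. The abundance limit of the list is not stated, so whether such pairs were listed only through their knockdown level was not tested. ZNF565 to the bin of ZNF565 and ZNF146, a zinc finger gene without a KRAB domain, had 3.21 and 2.84 CPM in the knockdown libraries and 1.95 and 1.98 CPM in the control libraries (log2 fold change 0.62, SE 0.19, edgeR adjusted p = 0.014). The ZNF536 pair was lost with the trend removed (adjusted p = 0.0712), while the other 2 remained. All 3 rises failed the test without knockdown library 1 (adjusted p = 0.0631, 0.31 and 0.276, in the order given) or knockdown library 2 (0.0951, 0.098 and 0.0735), and the ZNF536 pair also without control library 1 (0.0517).

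A short list of 5 members with a known retroelement target was picked, which is not a full count of such members. ZNF91 represses SVA elements and ZNF93 represses L1 elements of the L1PA group, ZNF808 silences MER11 elements, ZNF611 binds SVA elements and ZNF649 binds L1 elements. Of these, ZNF808 fell in both of its bins. The bin at chr19:52500001-52550000 had 13.5 and 12.6 CPM in the knockdown libraries and 15.6 CPM in each control library (log2 fold change -0.26, SE 0.08, edgeR adjusted p = 0.0145). The next had 10.9 and 9.59 CPM in the knockdown libraries and 12.8 and 12.4 CPM in the control libraries (log2 fold change -0.30, SE 0.09, edgeR adjusted p = 0.00969), and both passed with the trend removed. Without knockdown library 2 neither passed (adjusted p = 0.29 and 0.338), and without knockdown library 1 the first did not (0.075). ZNF91 had 5.49 and 5.51 CPM in the knockdown libraries against 6.66 and 6.86 CPM in the control libraries in the bin that holds its promoter shown above. That bin did not pass under TMM scaling (log2 fold change -0.30, SE 0.12, edgeR adjusted p = 0.0704) and passed with the trend removed (-0.35, adjusted p = 0.0436), while its other bin did not pass under either scaling (log2 fold change 0.26, adjusted p = 0.357 under TMM scaling). ZNF93 had 6.35 and 5.95 CPM in the knockdown libraries and 4.80 and 5.40 CPM in the control libraries, a log2 fold change of 0.27 that did not pass (edgeR adjusted p = 0.131, SE 0.12). ZNF611 (log2 fold change -0.21) and the bins of ZNF649 (0.14 and 0.21) did not pass either. So 1 of the 5 genes had a bin that fell under TMM scaling and 2 with the trend removed, and 0 had a bin that rose. Of all 18701 protein-coding genes with a listed bin 45.3% had a bin that fell and 7.91% a bin that rose under TMM scaling, and 15.2% and 12.3% with the trend removed. For the 244 ZNF genes of chromosome 19 the shares with a fall were 26.2% under TMM scaling and 13.9% with the trend removed.

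The cofactors through which KRAB zinc finger proteins silence chromatin were listed from general knowledge, 22 genes of which 21 have a listed bin. A bin fell in 11 of them (52.4%) and rose in 1 under TMM scaling, and in 3 (14.3%) and 1 with the trend removed. The shares with a fall were close to those of all protein-coding genes (45.3% under TMM scaling and 15.2% with the trend removed). TRIM28 lies just beyond the last ZNF bin of the long arm. Its bins had 52.8 and 55.3 CPM in the knockdown libraries against 61.9 and 69.5 CPM in the control libraries, and 58.1 and 59.3 CPM in the knockdown libraries against 69.3 and 74.4 CPM in the control libraries. Their log2 fold changes were -0.28 and -0.29 under TMM scaling (edgeR adjusted p = 3.04e-05 and 9.29e-06) and -0.03 and -0.03 with the trend removed (adjusted p = 0.655 and 0.701). The first TRIM28 bin did not pass without knockdown library 1 (adjusted p = 0.0796). SETDB1, the methyltransferase, fell in 1 of its 2 bins under TMM scaling (log2 fold change -0.27, edgeR adjusted p = 4.25e-05) and in 0 with the trend removed (log2 fold change 0.05, adjusted p = 0.475), and its bin did not pass without knockdown library 1 (0.171).

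Among the cofactor genes that fell under both scalings were ATF7IP, a partner that stabilises SETDB1, and CHAF1A, a subunit of the histone chaperone CAF-1. The ATF7IP bin had 6.21 and 6.09 CPM in the knockdown libraries and 8.71 and 8.23 CPM in the control libraries (log2 fold change -0.46, SE 0.11, edgeR adjusted p = 0.00064), while its other 3 bins did not pass. The first bin of CHAF1A, shared with SH3GL1 and UBXN6, had 53.6 and 56.0 CPM in the knockdown libraries and 70.2 and 75.8 CPM in the control libraries (log2 fold change -0.41, SE 0.06, edgeR adjusted p = 3.21e-10), and -0.15 with the trend removed (adjusted p = 0.00389). The single rise was a bin of ATRX, a chromatin remodeller of repeats and H3.3 deposition, at 3.31 and 3.50 CPM in the knockdown libraries and 2.01 and 2.16 CPM in the control libraries (log2 fold change 0.71, SE 0.18, edgeR adjusted p = 0.00229). The ATRX bin did not pass without knockdown library 2 (adjusted p = 0.0918), and the other 5 bins of the gene did not pass with all libraries.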

How the data were processed

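Per the labels, the libraries are Micro-C from SH-SY5Y cells, and HiC-Pro and hg38 are named without versions, per the submitters' processing notes. The deposited table gives raw contact counts per library for 89239 pairs of 50 kb bins, 48992 of them within a bin. Per the file headers it also holds the authors' log2 fold change and log2 mean abundance, an F statistic (a score), a p-value and an adjusted p-value. The sources used here do not name the test or the abundance limit behind the list, so library totals are those of the listed pairs.

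In R 4.3.3, edgeR 4.0.16 with limma 3.58.1 fitted the counts after TMM scaling and filterByExpr (which removed 0 pairs), using glmQLFit and glmQLFTest on all 4 libraries, with Benjamini-Hochberg adjustment at 0.05. TMM factors were 1.051 and 1.044 for the knockdown libraries and 0.9657 and 0.9441 for the control libraries, and the common dispersion was 0.00812. The fit was tested on simulated data. Contacts within a bin took 83.77% and 83.76% of the knockdown counts and 84.95% and 84.93% of the control counts. The same-numbered libraries are not stated to share a culture, and the control deviations correlated with the knockdown deviations at r = 0.0209, so the numbers were not treated as pairs. Alternatives were DESeq2 1.42.0, loess offsets per library, a fit of within-bin contacts alone, the authors' deposited table, a replicate block, no filter, leaving out each library, a threshold of 0.01, and other definitions of the member bins. With 1 library left in a group, it was assumed to vary like the pair in the other group.

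Genes and promoter sequences came from RefSeq (GRCh38.p14), and a bin belonged to a gene when it overlapped the gene body. Named bins were, for each cluster and outside, the 3 largest rises and falls past the threshold with no overlap between groups, the bin with most members (the first along the chromosome where several tied), the bins of the 5 retroelement binders and of the cofactors, and the 3 largest rises and falls between bins. The values of 1 cofactor gene are not reported here. The members and lists were chosen with earlier results of these data known. Counts, medians and figures were made with pandas 2.3.3, numpy 2.4.6, matplotlib 3.10.9 and scipy 1.17.1 in Python 3.11.15.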

Additional observations from a re-analysis of the deposited data

How the results depend on the processing

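The median log2 fold change of the ZNF bins was below 0 under every alternative tried, at -0.11 with DESeq2 and for bins inside the clusters, and -0.07 in the authors' deposited table, after loess removal of the trend and for bins with no other protein-coding gene. The count of ZNF bins past the threshold, 54 in edgeR, was 27 for bins with no other protein-coding gene, 26 to 60 with 1 library left out, and 58 with a replicate block. That block raised the pairs between ZNF bins to 10 from 9 and ended no named call. The ZNF575 to ZNF180 cluster had 1 bin past the threshold after trend removal and 1 in the authors' deposited table, and the ZNF615 to ZNF446 cluster had 8 under each. With 1 library left out the counts were 4 to 12 for the ZNF101 to ZNF254 cluster (11 with all libraries), 1 to 6 for ZNF565 to ZNF573 (5), 1 to 4 for ZNF575 to ZNF180 (5), 10 to 20 for ZNF615 to ZNF446 (18) and 1 to 8 for pairs between ZNF bins (9). At a threshold of 0.01, 2 bins of ZNF565 to ZNF573, 2 of ZNF575 to ZNF180 and 2 pairs passed. The difference in the share of contacts was -0.00627 percentage points over all within-bin contacts, against 0.659 over chromosome 19, where it was 0.534 to 0.784 with 1 library left out. After trend removal and in the authors' deposited table the fold change turned positive for the SETDB1 bin (log2 0.05) and for the ZNF536 bin that fell (log2 0.02). The cause of these shifts was not tested. Of the 19 named bins past the threshold, 6 passed under all 10 settings, and the trend removal and the authors' deposited table each lost 6, the omission of knockdown library 1 lost 9 and of knockdown library 2 lost 5. The ZNF536 bins were left out only after the data had been seen. With 2 libraries a group, p-values of single shares cannot pass 0.05, and bins under 3 CPM rest on few contacts.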

Other observations

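Zinc finger genes of chromosome 19 with other names (ZFP, ZIM, ZIK, ZSCAN and ZBTB genes and PEG3, 18 in all) had a bin that fell in 8 genes (44.4%) and a bin that rose in 0 under TMM scaling, and 5 genes had a bin that fell with the trend removed (27.8%). Of all protein-coding genes with a listed bin, 45.3% had a bin that fell under TMM scaling and 15.2% with the trend removed. ZFP14, a KRAB zinc finger gene within the ZNF565 to ZNF573 stretch, had 5.59 and 6.38 CPM in the knockdown libraries and 7.63 and 7.45 CPM in the control libraries (log2 fold change -0.33, SE 0.11, edgeR adjusted p = 0.0299). Its call was lost with DESeq2 (adjusted p = 0.0573) and without control library 1 (0.0513), knockdown library 1 (0.422) or knockdown library 2 (0.0662). ZBTB7A, a transcription factor of blood cell development, lies outside the clusters, and its bins had log2 fold changes of -0.55 and -0.51 under TMM scaling and -0.21 and -0.19 with the trend removed. The paternally expressed gene PEG3 and ZIM2 share a bin with 11.2 and 11.1 CPM in the knockdown libraries and 10.1 and 12.2 CPM in the control libraries, which did not pass (edgeR adjusted p = 0.985).

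Within the limits of the 4 clusters, 100 listed bins hold no ZNF gene. Contacts fell within 41 of them and rose within 6 under TMM scaling, and with the trend removed 14 fell and 6 rose. Their median level in control was 14.2 CPM and their median log2 fold change -0.15 under TMM scaling and -0.03 with the trend removed. The 164 ZNF bins inside the clusters were dimmer, at a median of 9.5 CPM in control. Of these 164 bins, 36 fell and 3 rose under TMM scaling, and 26 fell and 2 rose with the trend removed. Of all bins, 14.3% fell and 7.4% rose under TMM scaling, and 5.11% and 7.9% with the trend removed. Falls within the cluster limits were thus not confined to ZNF bins, and the difference between these groups was not tested.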
